A study of Mus musculus with 36 samples.

Results

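The genes of bile acid synthesis and transport were followed through CpG methylation of mouse liver: *Cyp7a1*, *Cyp8b1*, *Cyp27a1*, *Baat*, *Slc10a1*, *Abcb11*, *Nr1h4*, *Nr0b2*, *Fgfr4* and *Klb*. They are 10 genes of this pathway, chosen by name out of 21410 protein-coding genes on the autosomes. The choice was made with earlier results of these data known, and further genes of the pathway are counted as a list below. For each gene, the CpGs from 5 kb upstream to 1 kb past its end (hereafter its gene interval, mm9 annotation) were taken, 3462 CpGs in all, and read in fixed 500-bp windows. A window was tested when it had 3 or more CpGs and each animal had 30 or more reads in it, which left 486 windows in the intervals and 2580465 on all autosomes. All counts of windows below are of tested windows only. Methylation of a window, or of any longer region, is the percentage of its CpG reads that were methylated.

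The study sequenced bisulfite-converted liver DNA of 24 mice in 8 groups of 3 animals. Sires and dams were C57BL/6N (B6) or C3H/HeN (C3), both inbred strains. Their sons and daughters were F1 hybrids, B6C3F1 from B6 dams and C3 sires, and C3B6F1 from C3 dams and B6 sires. The study took 3 families per cross, each with a sire, a dam, a son and a daughter. The labels do not say which animals form a family, and the main tests treated all 24 animals as independent. Parents were mated at 10 weeks of age, weaning fell at week 16, and all animals were killed at week 20. The study states that parents and offspring were of the same age when killed. The labels give no transgene and no treatment. The dams had borne and raised offspring and the daughters were virgins. Sex and past pregnancy or lactation therefore cannot be told apart between sires and dams, whereas sons and daughters differed in sex without them. Per the study, parents were housed singly when not mating, and F1 animals were housed in groups by sex. The whole liver was used. An intermediate methylation level can therefore come from cells of different types or from partly methylated cells, and these cannot be told apart.

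The liver makes bile acids from cholesterol, conjugates them to taurine or glycine, and moves them through hepatocytes into bile. The returning bile acids are sensed in the hepatocyte by the nuclear receptor FXR (*Nr1h4*), which induces the repressor SHP (*Nr0b2*), and in the ileum they raise a hormone that acts on the liver through FGFR4 and its co-receptor β-Klotho (*Klb*). Both arms lower *Cyp7a1*, the rate-limiting enzyme of the classic pathway. CpG methylation is usually low across the start site of a gene used by the tissue and at its active enhancers, and high elsewhere.

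The 5 stretches of 300 bases that follow lie in the windows with the main differences, the *Klb*, *Cyp8b1*, *Cyp7a1* and *Nr1h4* stretches for sex and the *Fgfr4* stretch for strain. Each is the mm9 reference, plus strand, 5′ to 3′, with its CpGs in capitals.
Klb, upstream, chr5:65738546-65738845: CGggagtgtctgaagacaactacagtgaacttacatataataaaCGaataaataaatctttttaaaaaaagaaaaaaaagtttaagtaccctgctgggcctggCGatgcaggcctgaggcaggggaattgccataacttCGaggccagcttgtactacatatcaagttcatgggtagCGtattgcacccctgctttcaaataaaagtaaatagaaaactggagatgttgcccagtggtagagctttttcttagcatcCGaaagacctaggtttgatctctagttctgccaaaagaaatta
Cyp8b1, upstream, chr9:121828528-121828827: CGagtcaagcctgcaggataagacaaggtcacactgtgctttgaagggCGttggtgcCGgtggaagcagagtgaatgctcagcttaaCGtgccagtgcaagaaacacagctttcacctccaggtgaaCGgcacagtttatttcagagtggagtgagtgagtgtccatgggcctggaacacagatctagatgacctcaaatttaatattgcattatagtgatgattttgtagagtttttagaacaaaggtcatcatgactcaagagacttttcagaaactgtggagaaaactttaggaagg
Cyp7a1, within the gene, chr4:6199580-6199879: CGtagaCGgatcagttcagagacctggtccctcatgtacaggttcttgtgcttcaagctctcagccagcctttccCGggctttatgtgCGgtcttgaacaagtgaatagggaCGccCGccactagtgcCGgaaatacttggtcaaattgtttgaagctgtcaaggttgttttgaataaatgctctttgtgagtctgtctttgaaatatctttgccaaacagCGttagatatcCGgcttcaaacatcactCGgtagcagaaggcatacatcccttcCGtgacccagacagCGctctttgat
Nr1h4, intron, chr10:88945140-88945439: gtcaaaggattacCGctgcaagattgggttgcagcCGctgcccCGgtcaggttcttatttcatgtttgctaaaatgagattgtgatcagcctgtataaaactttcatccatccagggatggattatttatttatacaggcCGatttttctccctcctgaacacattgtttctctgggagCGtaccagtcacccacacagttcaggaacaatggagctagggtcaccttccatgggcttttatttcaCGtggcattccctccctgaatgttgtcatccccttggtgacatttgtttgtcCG
Fgfr4, intron, chr13:55256103-55256402: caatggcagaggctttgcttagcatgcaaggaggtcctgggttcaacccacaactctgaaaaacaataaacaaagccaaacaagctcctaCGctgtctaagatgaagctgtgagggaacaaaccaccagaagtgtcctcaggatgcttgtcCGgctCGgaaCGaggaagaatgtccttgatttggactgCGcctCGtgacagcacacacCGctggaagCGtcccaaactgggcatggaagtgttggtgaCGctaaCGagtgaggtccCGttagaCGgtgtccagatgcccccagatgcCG
The *Fgfr4* stretch is CpG-rich with 13 CpGs, and the *Cyp7a1* stretch holds 12. The other 3 hold 5 to 7 CpGs each. Single-nucleotide variants (SNVs) between the strains are listed at 3 positions of the *Cyp8b1* stretch, and at none of the other 4.

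Every member had a low-methylated start site. A low-methylated run was defined as at least 3 consecutive CpGs that were each below 50% when the reads of all 24 animals were summed. In all 10 genes such a run held the start site and was also the longest run of the gene. How many of all genes have such a run at the start was not counted. A low start is usual, with a median of 5.48% over all start regions. The runs at the start ranged from 1795 bp with 87 CpGs in *Fgfr4* to 5683 bp with 56 CpGs in *Nr1h4*. Within 500 bp of the start site (hereafter the start region), the summed level was 1.16% in *Cyp27a1* and 2.47% in *Fgfr4*, below the median of 5.48% over 20114 start regions. *Nr0b2* (7.64%), *Baat* (11.2%), *Klb* (15.8%), *Nr1h4* (16.3%), *Abcb11* (16.9%), *Slc10a1* (19.5%), *Cyp8b1* (23.1%) and *Cyp7a1* (23.7%) lay above that median. The tissue label was checked on 6 hepatocyte genes (*Alb*, *Apoa1*, *Apoa2*, *Fgb*, *Ahsg* and *Cps1*), whose start regions lay between 16.6% and 26.4%, whereas 3 Kupffer cell genes lay between 83.0% and 87.9% and 4 leukocyte genes between 75.3% and 87.5%. Low levels were not limited to hepatocyte genes, since 3 stellate cell genes lay between 0.644% and 23.1%, 3 bile duct genes between 7.58% and 63.9%, and 4 endothelial genes between 1.89% and 68.1%.

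**Figure D1:**
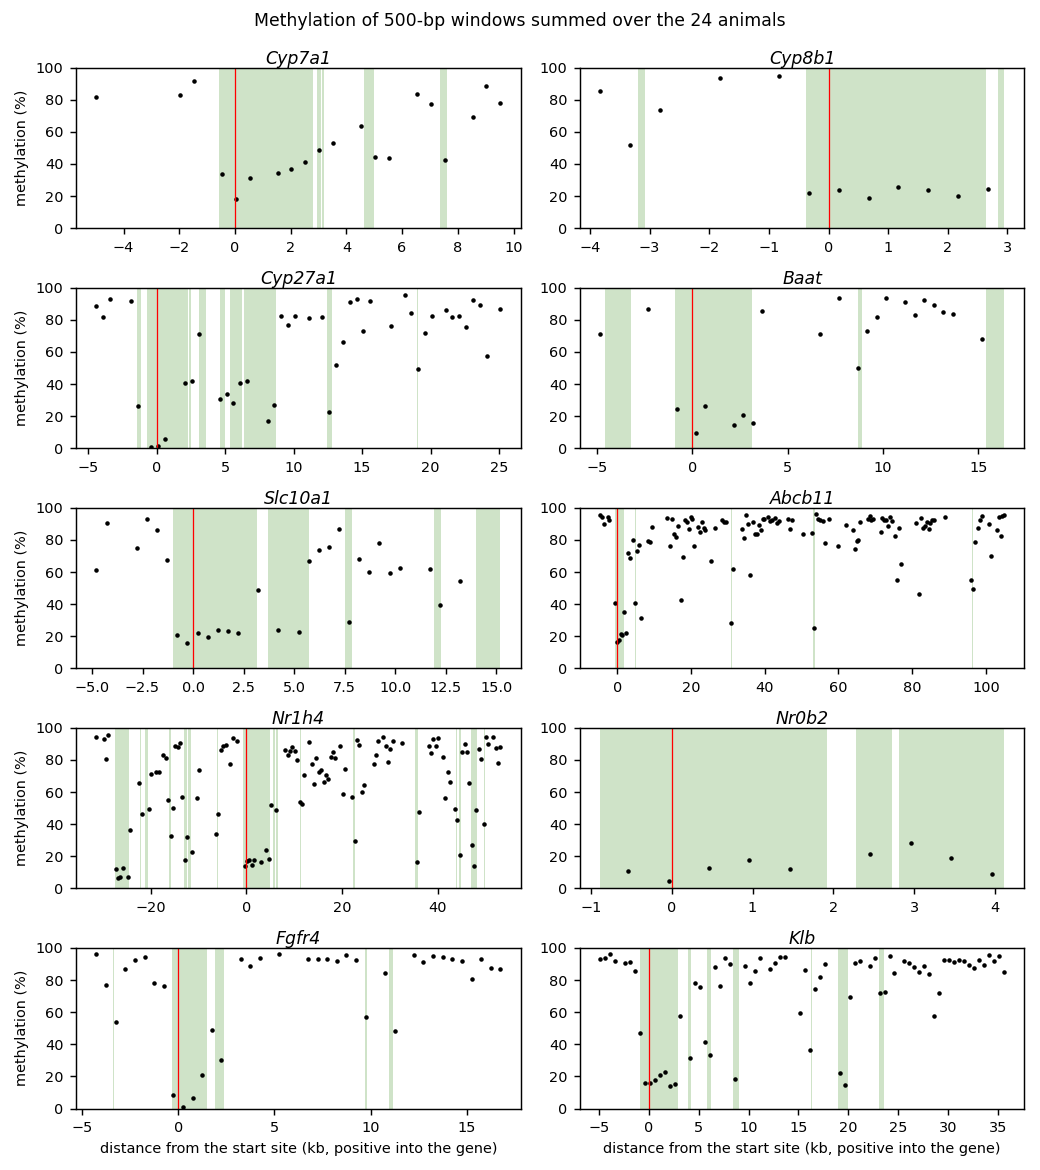
Methylation (%) of each tested 500-bp window of the 10 genes, summed over the 24 animals, against distance from the start site in kb, positive into the gene. The red line is the start site and green bands are low-methylated runs. Each start site lies inside a band, and *Nr1h4* has 23 bands in all.

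The synthesis enzymes differed in how far low methylation reached beyond the start. *Cyp7a1* (ENSMUSG00000028240, chr4:6192759-6202780, minus strand) had 10 of 20 windows below 50%, with a run of 3367 bp at the start (29 CpGs, 33.0%). *Cyp8b1* (ENSMUSG00000050445, chr9:121823474-121825423, minus strand) makes the 12α-hydroxylated bile acids that lead to cholic acid. Its run of 3032 bp (66 CpGs, 22.5%) spanned the whole gene, and 7 of 12 windows were below 50%. *Cyp27a1* (ENSMUSG00000026170, chr1:74760148-74784464, plus strand) encodes the mitochondrial sterol 27-hydroxylase of the alternative pathway. Its start run of 2969 bp (61 CpGs, 6.18%) was followed by a run of 2359 bp inside the gene (21 CpGs, 22.5%), and 15 of 44 windows were below 50%.

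*Baat* (ENSMUSG00000039653, chr4:49502294-49519429, minus strand), which conjugates bile acids to amino acids, had 6 of 22 windows below 50% and a start run of 4044 bp (29 CpGs, 16.7%). The uptake transporter NTCP is encoded by *Slc10a1* (ENSMUSG00000021135, chr12:82054172-82068971, minus strand). It had a start run of 4140 bp (55 CpGs, 21.4%), a second run of 2042 bp in an intron (14 CpGs, 23.4%), and 12 of 29 windows below 50%. *Abcb11* (ENSMUSG00000027048, chr2:69076339-69180671, minus strand) encodes the bile salt export pump of the canalicular membrane. It is the longest of the 10 genes, its interval also overlaps *Gm13613*, *Gm13614* and a microRNA gene, and it was the most methylated, with 14 of 124 windows below 50% and a start run of 2522 bp (32 CpGs, 18.8%).

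Of the sensors and signalling genes, *Nr0b2* (ENSMUSG00000037583, chr4:133109291-133112451, plus strand) had all 9 of its tested windows below 50%, with a start run of 2811 bp (40 CpGs, 11.8%). Its interval holds 18 windows, and the others were not tested. *Nr1h4* (ENSMUSG00000047638, chr10:88916979-88996330, minus strand) had 33 of 117 windows below 50% in 23 runs. Its annotation holds a second start at 88996330, which also lay in a run (chr10:88995192-88996922, 31 CpGs, 7.83%). *Fgfr4* (ENSMUSG00000005320, chr13:55254001-55270120, plus strand) had the densest CpGs, 19.0 per kb, with 7 of 37 windows below 50%. *Klb* (ENSMUSG00000029195, chr5:65739625-65775242, plus strand) had 15 of 72 windows below 50% and a start run of 3833 bp (71 CpGs, 18.4%). Over whole intervals the summed level was lowest in *Nr0b2* (25.9%) and *Cyp8b1* (36.5%), and only 2.77% and 5.64% of the 21215 gene intervals measured were lower. It was 50.3% in *Slc10a1*, 55.6% in *Cyp7a1*, 57.3% in *Cyp27a1*, 63.4% in *Nr1h4*, 65.7% in *Baat*, 70.5% in *Klb*, 71.6% in *Fgfr4* and 79.96% in *Abcb11*, against a median of 72.6% over all intervals.

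**Figure D2:**
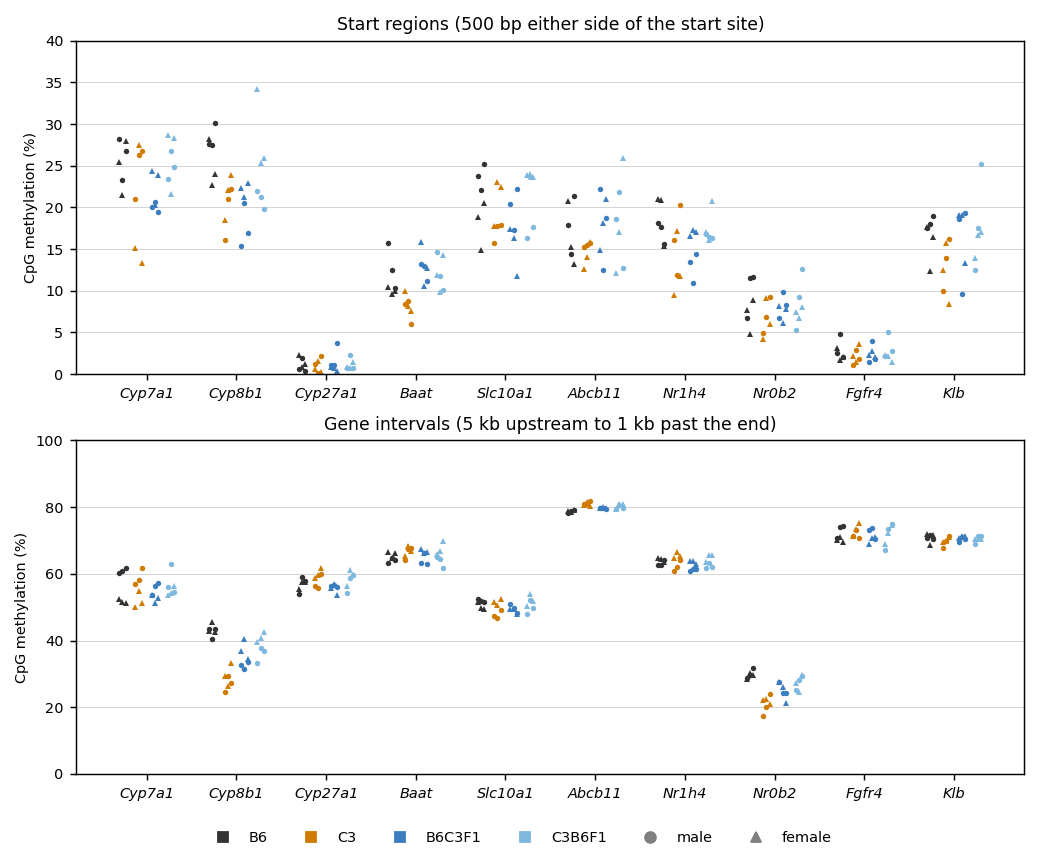
Methylation (%) of the start region (top) and the gene interval (bottom) of each gene in the 24 animals, 1 symbol per animal, coloured by strain or cross (circles male, triangles female). B6 and C3 parents separate in the *Cyp8b1*, *Nr0b2* and *Abcb11* intervals, and sires lie above dams in the *Cyp7a1* interval.

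The first question was whether the parental strains differed. B6 and C3 parents, 6 animals each with both sexes, were compared with limma over all windows, and a window was called when its Benjamini-Hochberg adjusted p was below 0.05 and the strains differed by at least 20 percentage points. Of the 486 member windows 5 were called, 2 in *Fgfr4*, 2 in *Nr1h4* and 1 in *Klb*, against 0.436% of all windows tested. B6 was higher in 2 of the 5 (0.225% of all windows were called in that direction). By adjusted p alone, 47 member windows passed (4.81% of all windows did), 16 of them in *Nr1h4*, 7 each in *Cyp8b1* and *Klb*, 5 each in *Cyp27a1* and *Fgfr4*, 4 in *Baat*, 2 in *Abcb11* and 1 in *Slc10a1*. No window of *Cyp7a1* or *Nr0b2* passed. B6 was higher in 23 of the 47, and 1.71% of all windows passed with B6 higher. The members held more windows of intermediate level than the genome, 189 of 486 (38.9%) between 20% and 80% against 32.5% of all windows. All 5 called windows were of that kind, as were 10369 of the 11253 called over all windows. Within that class 34 of the 189 member windows passed by adjusted p, against 8.11% of all windows of the class.

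The largest strain difference was in the second low-methylated run of *Fgfr4*, 2.25 kb into the gene (chr13:55256001-55256500, intron, 14 CpGs). Methylation in the 3 B6 sires was 45.9%, 59.8% and 51.0%, and in the 3 B6 dams 38.9%, 42.3% and 43.1%. In the C3 sires it was 6.84%, 21.3% and 13.9%, and in the C3 dams 14.7%, 6.90% and 16.3%. All B6 animals were above all C3 animals. The means were 46.8% ± 7.52 and 13.3% ± 5.63 (SD, n = 6 each), a difference of 33.5 points (SE 3.08, limma adjusted p = 1.06e-08). The F1 mean lay between, at 25.6% ± 6.84 (SD, n = 12). Along the 300 bases printed above, the CpG 2253 bp into the gene was at 59.2% in B6 sires and 16.1% in C3 sires. No SNV is listed in the window and the nearest is 2230 bp from it. Read depth per CpG was 26.5 in B6 and 15.2 in C3 parents, and its part in the difference was not tested.

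Further into *Fgfr4*, the window at chr13:55263501-55264000 (intron, 6 CpGs, 1 SNV) was lower in B6. The lowest, median and highest B6 animals were at 36.3%, 47.9% and 60.0%, and the C3 animals at 65.8%, 70.3% and 78.7%. The strains did not overlap, and differed by -22.2 points (SE 3.48, limma adjusted p = 2.07e-05). Over 33 settings the difference ran from -23.9 to -17.4 points, and its smallest size was below the minimum difference for a call. Read depth was uneven, with 398 reads of all animals at the CpG 9731 bp into the gene and 567 at 9939 bp. The summed levels there were 39.9% and 95.4%. The part of depth in this strain difference was not tested. The F1 mean was 55.7%. Both strain windows of *Fgfr4* lie in the gene body, while its start region was at 2.73% ± 1.14 in B6 and 2.20% ± 0.933 in C3 (limma adjusted p = 0.599).

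In *Klb*, the called window lay 20.1 kb into the gene at the edge of an intronic low-methylated run (chr5:65759501-65760000, 5 CpGs). B6 animals ran from 53.2% through a median of 61.4% to 69.7%, and C3 animals from 80.2% through 82.2% to 83.2%. The groups did not overlap, with means of 61.3% ± 6.31 and 82.0% ± 1.26 (difference -20.7 points, SE 2.78, limma adjusted p = 1.28e-06). The CpGs at 65759629, 65759790 and 65759844 were lower in B6 sires and dams than in C3. The CpG at 65759916 went the other way, with 80.5% and 83.3% in B6 sires and dams and 64.8% and 65.9% in C3. At 65759778 the parental groups lay between 91.0% and 98.9%. The F1 mean was 67.3%. The adjacent window inside that run (chr5:65759001-65759500, 12 CpGs) had the opposite direction, 17.1% in B6 and 9.76% in C3 (limma adjusted p = 0.00452).

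*Nr1h4* had strain windows in both directions, 8 of its 16 higher in B6. Upstream of the main start and downstream of the second start, chr10:88989001-88989500 (intron, 4 CpGs, 3 SNVs) was at 74.4%, 79.4% and 86.3% in the lowest, median and highest B6 animals. In C3 it was at 46.5%, 52.3% and 60.9%. B6 was higher in every animal, by 26.2 points on average (SE 2.92, limma adjusted p = 1.49e-07). Downstream of the main start, chr10:88957001-88957500 (intron, 4 CpGs, 8 SNVs) was at 55.8%, 59.8% and 75.2% in B6 and at 82.9%, 86.5% and 90.1% in C3, again without overlap (difference -23.1 points, SE 4.29, limma adjusted p = 1.42e-05). In this second window the CpGs at 88957429 and 88957451 carried the difference. B6 sires and dams were at 26.7% and 26.4%, and at 28.6% and 34.9%. C3 sires and dams were at 79.5% and 72.2%, and at 91.2% and 94.4%. At 88957130 and 88957146 the 4 parental groups lay between 78.9% and 93.2%, with no such gap. The F1 mean was 69.9% in both windows. Depth per CpG was 35.9 in B6 and 16.8 in C3 at the first window, and 30.7 and 18.3 at the second, and its part in these differences was not tested. The whole *Nr1h4* interval, which holds windows of both directions, was at 63.7% in B6 and 63.9% in C3 (limma adjusted p = 0.819). The window that most narrowly missed the 20 points was chr10:88946501-88947000, with -19.97 points.

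*Cyp8b1* differed over its gene interval, which stood at 40.4%, 43.2% and 45.5% in the lowest, median and highest B6 parents, and at 24.7%, 28.4% and 33.1% in C3 parents. Every B6 animal was above every C3 animal, with means of 43.1% ± 1.66 and 28.4% ± 2.98 (difference 14.7 points, SE 1.30, limma adjusted p = 8.54e-08). Only 10 of the 21215 intervals had a larger difference in that direction. B6 was higher in all 12 windows, against 36.4% of all windows tested. Of the 12, 7 passed by adjusted p. They were the 6 adjacent windows from downstream of the gene to its start site, by 8.51 to 13.4 points, and an upstream window (chr9:121828001-121828500, 16.04 points). The window 0.828 kb before the start site, at 94.6% in all animals together, differed by 0.0861 points. The smallest p was at chr9:121823001-121823500, which overlaps an exon (9 CpGs), with 26.9% ± 4.30 in B6 and 13.6% ± 4.36 in C3 (13.4 points, SE 2.59, limma adjusted p = 0.000317). The F1 mean for the interval was 36.7% ± 3.595 (SD, n = 12). The interval holds 28 SNVs. Without CpGs within 10 bp of an SNV the difference was 13.8 points. In the 3 windows farthest upstream, which were more methylated, depth per CpG was 28.2 to 34.6 in B6 but 12.1 to 14.7 in C3. The part of depth in the interval difference was not tested. With every CpG weighted equally, a setting chosen after seeing the data, the means were 42.6% ± 1.27 and 31.6% ± 3.64, and the difference was 11.0 points (limma adjusted p = 3.19e-07).

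*Nr0b2* also differed over its interval and not in any single window. The lowest, median and highest animals were at 28.5%, 29.6% and 31.7% in B6, and at 17.5%, 21.5% and 24.1% in C3, without overlap. The difference was 8.59 points (SE 1.29, limma adjusted p = 4.82e-05). Weighting every CpG equally reduced it to 3.80 points, from 29.2% ± 0.607 to 25.4% ± 1.68 (limma adjusted p = 0.00115). In its 9 windows the differences ran from -0.844 to 8.67 points. *Abcb11* was the third gene interval called, and was lower in B6. Its B6 animals lay at 78.3%, 78.9% and 79.3%, its C3 animals at 80.4%, 81.1% and 81.8% (lowest, median and highest). The difference was small but larger than the spread between animals, -2.23 points (SE 0.30, limma adjusted p = 5.84e-05). Of all gene intervals, 28.1% passed in this comparison, 4.17% with B6 higher, so that 3 of 10 members is near the background in number.

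At the start regions the B6 mean was higher in all 10 members, with a median difference of 2.78 points, whereas 37.8% of all start regions were higher in B6 and their median was -0.11 points. The smallest of the 10 differences, in *Cyp27a1* (0.224 points), turned to -0.0301 points without B6 sire 2 and to -0.0218 points without C3 sire 2. Of the 10, 2 passed the test, both higher in B6, as did 9.22% of all start regions (3.33% with B6 higher). *Cyp8b1* had 22.8%, 27.6% and 30.1% in the lowest, median and highest B6 parents and 16.1%, 21.5% and 23.8% in C3, which overlapped slightly (6.09 points, SE 1.60, limma adjusted p = 0.0187). *Baat* had 9.66%, 10.4% and 15.7% in B6 and 6.02%, 8.29% and 10.0% in C3, also overlapping (3.27 points, SE 1.11, limma adjusted p = 0.0361). This is the start at 49519429. A second annotated start of *Baat* at 49515992, with the same coding length, was not tested as a start region. Without B6 dam 1 neither start region passed. *Cyp8b1* was also lost without B6 sire 3, C3 sire 1 or C3 dam 1 (adjusted p of up to 0.0723), and *Baat* without B6 sire 1 or 2, B6 dam 2 or 3, C3 sire 3, or C3 dam 2 or 3 (up to 0.123). The 6 hepatocyte marker genes moved the same way. All 6 had higher start regions in B6, 3 passed (*Cps1*, *Apoa2* and *Fgb*, by 8.04 to 13.5 points), and their summed level was 16.2% to 27.5% in B6 and 16.4% to 18.8% in C3 animals. The Kupffer cell genes, 3 of 4 measured, were at 81.0% to 85.6% in B6 and 83.9% to 87.7% in C3 with none called. The 4 leukocyte genes were at 79.1% to 82.9% and 81.7% to 84.2%, 1 of them called lower in B6 (*Cd3e*). Of 4 endothelial and 3 stellate cell genes none was called, with summed levels of 24.2% to 33.5% in B6 and 26.1% to 35.6% in C3, and of 5.82% to 8.74% and 7.20% to 11.3%. Of 3 bile duct genes, *Spp1* was called lower in B6, with summed levels of 18.2% to 22.9% and 19.7% to 23.7%. Over gene intervals, all 6 hepatocyte genes had the higher mean in B6 and 2 of them passed. All genes of the other 5 marker lists had the lower mean in B6. This was the usual direction, since only 22.0% of all gene intervals were higher in B6. The test passed 3 of 4 Kupffer cell, 2 of 4 leukocyte and 2 of 4 endothelial genes. It also passed 1 of 3 stellate and 1 of 3 bile duct genes. The part of cell composition in the strain results was not tested.

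**Figure D3:**
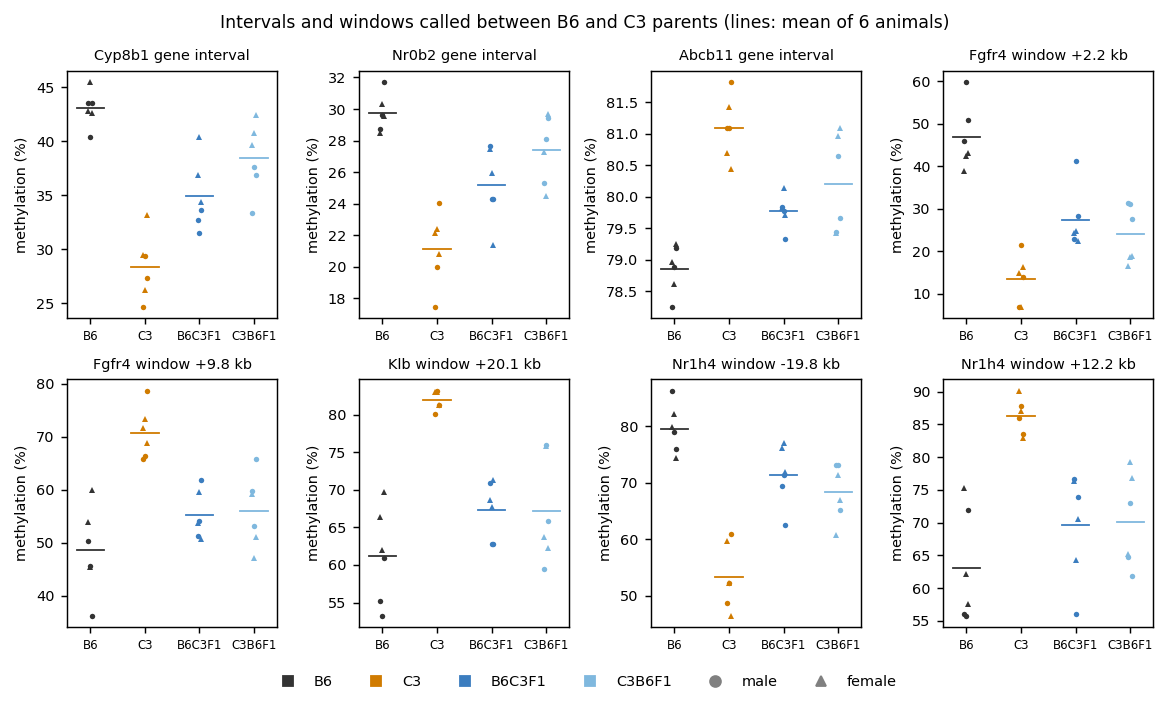
Methylation (%) of the 3 gene intervals and 5 windows called between B6 and C3 parents, 1 symbol per animal, by strain or cross. Horizontal lines are means of 6 animals and each panel has its own axis range. B6 and C3 parents do not overlap in any of the 8 panels, and the means of both F1 crosses lie between the parental means.

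The remaining members had smaller strain differences. The *Cyp27a1* window over its last exon (chr1:74784001-74784500, 10 CpGs) was at 50.5% ± 4.17 in B6 and 63.8% ± 1.91 in C3 (-13.3 points, limma adjusted p = 0.000647), and all 5 of its windows that passed were lower in B6. *Slc10a1* passed in 1 window, inside its intronic low-methylated run (chr12:82063501-82064000), 29.7% ± 7.76 against 15.1% ± 5.78 (14.6 points, limma adjusted p = 0.00559). The *Baat* window with the smallest p (chr4:49504001-49504500) was at 63.0% and 74.2% (-11.2 points, limma adjusted p = 0.00906), and the *Abcb11* window (chr2:69183001-69183500) at 91.3% and 95.7% (-4.40 points, limma adjusted p = 0.0166, 0.0613 without C3 sire 3). No SNV is listed in the *Cyp7a1* or *Baat* intervals. *Cyp7a1* was at 56.3% in B6 and 55.5% in C3 over its interval (0.745 points, limma adjusted p = 0.688).

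The second question was whether the sexes differed. Sires and dams of both strains together, 6 against 6, gave 2 called member windows, in *Klb* and *Cyp8b1* and both lower in sires, against 0.11% of all windows (0.0774% lower in sires). By adjusted p alone 17 member windows passed (0.797% of all windows), 13 of them lower in sires (0.429% of all windows). There were 7 in *Nr1h4*, 4 in *Cyp7a1*, 2 in *Cyp8b1* and 1 each in *Cyp27a1*, *Baat*, *Abcb11* and *Klb*. Of the 189 member windows between 20% and 80%, 16 passed, against 1.7% of all windows of that class. Of the 10 intervals 2 passed, *Cyp7a1* higher and *Nr1h4* lower in sires, while 13.6% of all gene intervals did (12.2% higher and 1.39% lower in sires). No member start region passed in limma, against 0.507% of all, and 0 passed by the quasi-binomial test. At an unadjusted limma p under 0.05 there were also 0, against 8.70% of all. Hepatocyte genes were at 16.4% to 27.5% in sires and 16.2% to 21.9% in dams, and no start region of the 6 marker lists was called between them. Over their intervals, all 4 Kupffer cell and all 4 leukocyte genes had the higher mean in sires, as did 69.1% of all gene intervals. Of these genes, 3 and 1 passed, by 1.60 to 1.84 points. Of the 6 hepatocyte genes, 4 had the higher interval mean in sires, with a median difference of 1.78 points and a maximum of 4.96. The 1 that passed, *Cps1*, was lower in sires (-2.86 points). The part of cell composition in the sex results was not tested.

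*Cyp7a1* was more methylated in sires. Its interval was at 60.2%, 60.8% and 61.6% in B6 sires and at 57.0%, 58.0% and 61.9% in C3 sires. In dams it was at 52.4%, 51.5% and 51.2% (B6) and at 50%, 55.0% and 51.3% (C3). All sires were above all dams, in both strains. The means were 59.9% ± 1.97 and 51.9% ± 1.70 (8.03 points, SE 1.32, limma adjusted p = 0.000328), and only 16 of 21215 intervals had a larger difference with sires higher. Sires were higher in 18 of the 20 windows, and in 64.3% of all windows tested. The sons and daughters overlapped, at 53.5%, 56.3% and 63.1% and at 51.3%, 53.6% and 56.3% (lowest, median, highest). Their difference of 3.2 points had a limma adjusted p of 0.439, and the test of whether the sex difference changed between parents and F1 gave -4.83 points (SE 1.86, limma adjusted p = 0.236).

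The 4 *Cyp7a1* windows that passed were all inside the gene. The strongest was the CpG-rich window at the downstream edge of the start run (chr4:6199501-6200000, overlapping an exon, 17 CpGs, 3.03 kb into the gene), which holds the *Cyp7a1* stretch printed above. B6 sires were at 63.8%, 61.3% and 66.7% and C3 sires at 56.7%, 50.5% and 53.9%. B6 dams were at 42.4%, 45.1% and 41.6% and C3 dams at 38.1%, 38.8% and 41.0%. Sires and dams did not overlap (58.8% ± 6.17 and 41.2% ± 2.54, difference 17.6 points, SE 2.41, limma adjusted p = 0.000145). Not every CpG of the printed stretch had sires higher in both strains. At 6199692, 6199696 and 6199708, C3 sires were at 48.7%, 42.1% and 36.9% and C3 dams at 47.0%, 47.6% and 37.3%. There B6 sires were at 81.0%, 71.2% and 59.1% and B6 dams at 50.6%, 48.7% and 46.3%. Sons were at 50.9% ± 6.22 and daughters at 44.3% ± 3.10 (6.55 points, limma adjusted p = 0.598). The other 3 windows were higher in sires by 11.2 to 13.4 points. At the start region itself sires were at 25.4% ± 2.72 and dams at 21.8% ± 6.34 (limma adjusted p = 0.597). No SNV is listed in the interval.

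*Klb* was less methylated in males just upstream of its start. The window at chr5:65738501-65739000 (7 CpGs, centred 0.874 kb before the start site) spans the edge at which its start run begins. Sires were at 32.1%, 39.9% and 42.9% (B6) and at 35.8%, 30.9% and 39.5% (C3). Dams were at 63.5%, 54.9% and 50.2% (B6) and at 53.8%, 58.8% and 67.6% (C3). All sires were below all dams (36.9% ± 4.72 and 58.1% ± 6.48, difference -21.3 points, SE 3.27, limma adjusted p = 0.000115). Sons had the lowest, median and highest values of 34.9%, 37.5% and 52.0%, and daughters of 46.0%, 54.3% and 58.4%, which overlapped through 1 son and 1 daughter of the B6C3F1 cross. Their difference was -14.4 points (limma adjusted p = 0.0315). That call was lost, with an adjusted p of up to 0.128, when B6C3F1 son 1 or 3, B6C3F1 daughter 1 or 2, C3B6F1 son 1 or 3, or C3B6F1 daughter 1 or 2 was left out. In the stretch printed above, the CpGs 976 to 822 bp before the start site carried the difference. At the CpG 822 bp before it, B6 sires and dams were at 22.7% and 53.2%, C3 sires and dams at 18.2% and 59.0%. At the next CpG, 694 bp before the start site and outside the printed stretch, the 8 groups lay between 18.6% and 28.7%. B6 and C3 parents were at 47.2% and 47.7% in this window (limma adjusted p = 0.967).

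*Cyp8b1* differed between the sexes in its upstream region. The window at chr9:121828501-121829000 (6 CpGs, 3.33 kb before the start site) was at 48.5%, 37.9% and 34.9% in B6 sires and at 63.4%, 67.6% and 62.9% in B6 dams. In C3 it was at 19.7%, 36.8% and 38.3% in sires and at 60.7%, 51.8% and 48.2% in dams. Within each strain all sires were below all dams. Pooled, the groups overlapped slightly, with 36.0% ± 9.30 and 59.1% ± 7.47 (-23.1 points, SE 4.40, limma adjusted p = 0.000795). Sons were at 44.4% ± 7.002 and daughters at 61.2% ± 8.20 (-16.8 points, limma adjusted p = 0.0590). The neighbouring window, chr9:121828001-121828500, was also lower in sires (-17.1 points, limma adjusted p = 0.0132). Depth in the first window was 12.1 reads per CpG in C3 parents and 31.5 in B6. Over the whole interval sires were at 34.8% and dams at 36.6% (limma adjusted p = 0.436).

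**Figure D4:**
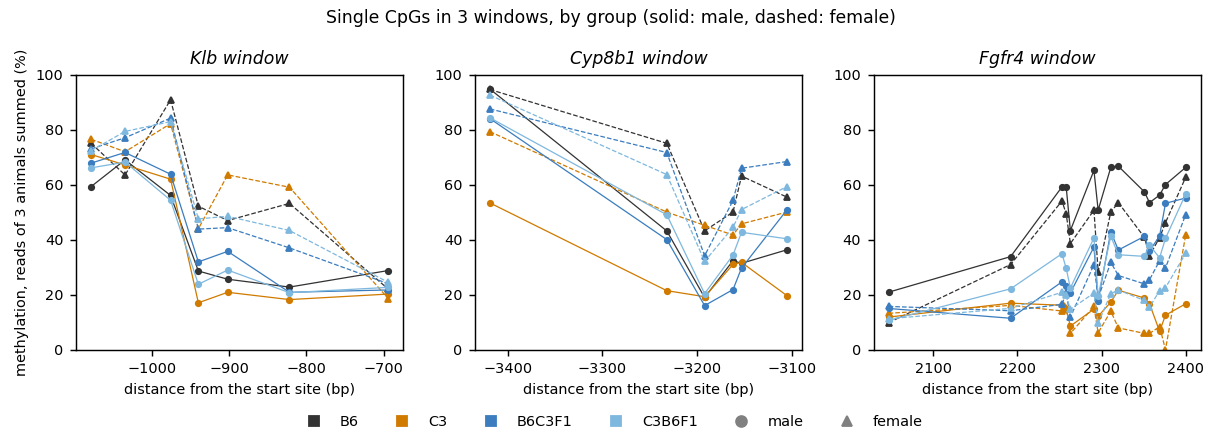
Methylation (%) of single CpGs, reads of the 3 animals of a group summed, in the *Klb*, *Cyp8b1* and *Fgfr4* windows, against distance from the start site in bp (solid lines male, dashed female). Male and female lines separate between 976 and 822 bp upstream in *Klb* and meet at 694 bp, and B6 lines lie above C3 lines across most of the *Fgfr4* window.

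*Nr1h4* had the most windows that differed by sex, all intronic and all lower in males. As a share of the windows tested it was not the highest. Between sires and dams it had 7 of 117, against 4 of 20 in *Cyp7a1* and 2 of 12 in *Cyp8b1*. Between sires and dams 7 passed and between sons and daughters 5, and 4 windows passed in both, which is 4 of 7 and 4 of 5. Over all windows, 5274 passed in both with the same direction, which is 25.6% of those that passed between sires and dams and 69.5% of those between sons and daughters. The window at chr10:88945001-88945500 (9 CpGs, 1 SNV, 24.2 kb into the gene) holds the *Nr1h4* stretch printed above. Sires were at 44.0%, 45.7% and 54.9% (B6) and at 58.5%, 46.4% and 61.5% (C3). Dams were at 68.1%, 63.5% and 67.2% (B6) and at 74.3%, 76.2% and 71.0% (C3). The sexes did not overlap (-18.2 points, SE 2.20, limma adjusted p = 2.68e-05). They did not overlap in the F1 either, where sons ran from 48.2% to 53.9% with a median of 51.5% and daughters from 63.6% to 66.4% with a median of 64.9% (-13.9 points, limma adjusted p = 0.00460).

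Before the main start of *Nr1h4*, chr10:88979501-88980000 (5 CpGs, 2 SNVs) was lower in males of both generations. Sires were at 37.1%, 47.9% and 55.3% and dams at 58.4%, 64.3% and 71.6% (lowest, median, highest), without overlap. Sons were at 38.3%, 46.2% and 50% and daughters at 58.5%, 63.9% and 73.5%, again without overlap. The differences were -16.2 points (limma adjusted p = 0.00268) and -18.8 points (limma adjusted p = 0.000709), with an SE of 2.90 for each. The other windows that passed in both generations were chr10:88927501-88928000 (-13.9 and -14.2 points) and chr10:88953001-88953500 (-12.9 and -13.3 points). Over the whole interval sires were at 62.7% ± 1.31 and dams at 64.9% ± 0.988, which overlapped (-2.19 points, SE 0.564, limma adjusted p = 0.0300). Sons and daughters were at 61.8% and 64.3% (-2.47 points, limma adjusted p = 0.132). The call of the *Nr1h4* interval was lost, with a limma adjusted p of up to 0.0860, without B6 sire 1 or 2, B6 dam 1 or 2, C3 sire 1 or 2, or C3 dam 2.

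**Figure D5:**
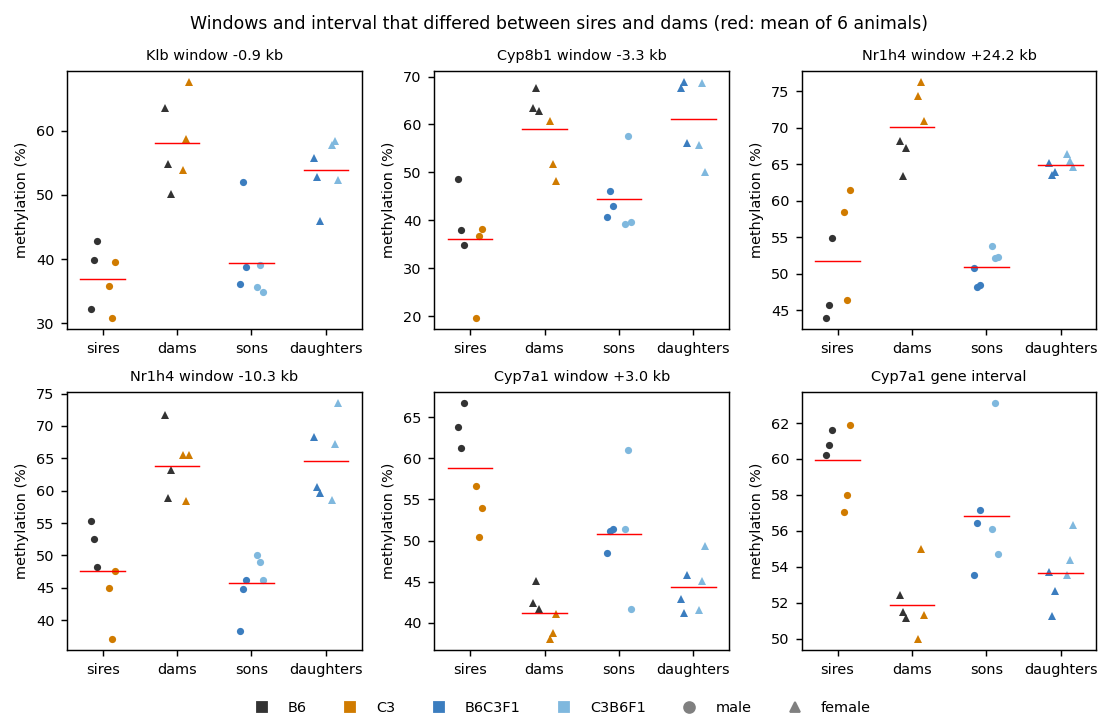
Methylation (%) of 5 windows and of the *Cyp7a1* interval in sires, dams, sons and daughters, 1 symbol per animal, coloured by strain or cross. Red lines are means of 6 animals and each panel has its own axis range. Sires and dams do not overlap in 5 of the 6 panels. Sons and daughters do not overlap in the 2 *Nr1h4* panels.

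Smaller sire-dam differences passed in *Baat* (chr4:49512501-49513000, overlapping an exon, 64.5% and 77.4%, -12.9 points, limma adjusted p = 0.00441) and *Cyp27a1* (chr1:74771001-74771500, intron, 78.2% and 88.5%, -10.3 points, limma adjusted p = 0.00490). The *Abcb11* window chr2:69149001-69149500 was at 56.3% and 66.5% (-10.2 points, limma adjusted p = 0.0460), close to the threshold. No window of *Slc10a1*, *Nr0b2* or *Fgfr4* passed between sires and dams. Between sons and daughters, the 6 member windows that passed by adjusted p (0.294% of all windows) were the 5 of *Nr1h4* and that of *Klb*, each lower in sons (0.259% of all windows passed with sons lower). None reached 20 points, against 0.0571% of all windows. No start region and no gene interval passed in limma (0.244% and 0.584% of all did). At an unadjusted limma p under 0.05 there were 1 start region (5.90% of all), 4 intervals (9.27% of all) and 63 windows (6.82% of all). The quasi-binomial test passed 1 interval. With every CpG weighted equally, 3 intervals passed, *Cyp8b1* (35.8% in sons and 41.0% in daughters), *Baat* (65.1% and 67.5%) and *Nr1h4* (63.4% and 65.5%), as did 5.89% of all intervals.

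The comparison of dams with virgin daughters asks about past pregnancy and lactation together with F1 hybrid genotype and housing, which cannot be told apart. No member window, start region or gene interval passed, against 0.0179%, 0.0945% and 0.995% of all. In limma, 58 of the 486 windows had an unadjusted p under 0.05 (7.50% of all windows did). Sires against sons gave none either (0.0012%, 0.0497% and 0.00471% of all, 32 windows at an unadjusted p under 0.05 against 6.21% of all). The reciprocal crosses B6C3F1 and C3B6F1 did not differ past the threshold in any member (0.000465%, 0.0199% and 0.0189% of all, 55 windows at an unadjusted p under 0.05 against 6.30% of all). The *Cyp8b1* interval was at 34.9% in B6C3F1 and 38.5% in C3B6F1 animals (-3.56 points, SE 1.30, limma adjusted p = 0.238). Neither the dependence of the sire-dam difference on strain (39 windows at an unadjusted p under 0.05 against 5.34% of all) nor its change from parents to F1 (40 windows against 7.06%) was called in any member window, start region or interval by limma (0.000581%, 0.00994% and 0.00943% of all for the first, 0.0151%, 0.0398% and 0.179% for the second). The quasi-binomial test also called no member in these 5 comparisons.

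Outside the 10 members, 31 further genes of bile acid synthesis, transport and their regulators were counted as a list. Between B6 and C3 parents, 2 start regions passed with B6 higher (*Abcc3* and *Nr1i2*, by 4.70 and 5.65 points) and 1 with B6 lower (*Osta*, 76.0% and 84.3%), near the 9.22% of all start regions. Over intervals, 2 passed with B6 higher and 9 with B6 lower, against 28.1% of all intervals. The list's median differences were 1.28 points for start regions and -0.916 points for intervals, beside -0.107 and -0.963 over all genes. Between sires and dams the start region of *Slco1a1*, an organic anion uptake transporter, was the largest, with 18.2% ± 6.72 in sires and 52.1% ± 6.58 in dams (-33.9 points, SE 4.20, limma adjusted p = 2.04e-07). It was also lower in sons than in daughters, 22.3% ± 5.68 and 48.4% ± 9.37 (-26.1 points, limma adjusted p = 0.000174). Of the start regions of the list that passed, *Slco1a4* was the one higher in sires (24.9% and 16.7%, limma adjusted p = 0.0395), and 0.507% of all start regions passed. Over intervals 2 passed with sires higher and 5 with sires lower (13.6% of all intervals passed), among the lower *Scp2*, a sterol carrier and peroxisomal thiolase (56.9% ± 1.81 and 66.9% ± 0.962, -10.1 points), *Cyp7b1*, the oxysterol 7α-hydroxylase (-5.10 points), and *Acox2*, which shortens the bile acid side chain (-3.04 points). *Scp2* and *Slco1a1* were also lower in sons (-7.78 and -4.74 points). No start region or interval of the list passed in the other 5 comparisons.

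Promoter sequences of 300 bases were found in the RefSeq table for 8 of the 10 members, 9 promoters in all. *Cyp7a1* and *Baat* had no entry, so their promoters were not searched. They were searched on both strands for AAGGTCA, a site letter string of NR5A2, and TGTTTAC, a string bound by forkhead factors. Neither was present in any of the 9, while 4.72% and 3.65% of the 32851 promoters of the table held them. At such shares, 9 promoters are too few to tell their absence from the background.

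Depth over the autosomal CpGs was 19.4 to 32.8 reads per CpG and animal, and overall methylation was 75.0% to 77.5%. The called windows had at least 41 reads in every animal, and the *Fgfr4* strain window at least 153. These are sums over the CpGs of a window. Within the *Fgfr4* window depth was uneven, from 866 reads of all animals at the CpG 2047 bp into the gene to 378 at the CpG 2376 bp into it. How this drop was divided between B6 and C3 animals was not counted, and its part in the strain difference was not tested.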

How the data were processed

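Liver DNA of 24 mice was measured by whole-genome bisulfite sequencing. Per the study's methods, the authors filtered reads on base quality, aligned them to mm9, removed duplicates, trimmed overlapping mates, merged libraries per animal and kept CpGs present in mm9 and in both strains. The submitters' processing notes name CASAVA 1.8.2, Bismark 0.7.8, Bowtie 0.12.8 and Picard 1.110. The deposited values are counts of methylated and unmethylated reads per CpG and animal, used as deposited. The FOXA1 ChIP samples of the series are not analysed here. Animals were grouped by the labels.

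All 19751474 CpG rows lay on a CG of the mm9 reference, and genes are those of GENCODE vM1. Autosomal counts (18887127 CpGs, 365740739 to 619888157 counts per animal) were summed over 500-bp windows, start regions and gene intervals with at least 3 CpGs and 30 reads in every animal. The value log2((methylated + 1)/(unmethylated + 1)) was fitted with limma 3.58.1 in R 4.3.3 (8 group means, trended prior variance), and p-values were Benjamini-Hochberg adjusted over all features. Differences and their SE are in percentage points of the group means. The study's own region callers were not installed. Windows were called at an adjusted p below 0.05 and 20 points, other features at an adjusted p below 0.05. In a simulation on 70250 chromosome 19 windows for B6 against C3 parents, 94.5% of 200 windows changed by 20 points passed by adjusted p and 42% were called, and 0.0329% of unchanged windows passed. The simulated spread between animals was a fixed setting, not the spread of the real windows, and unchanged windows had the same mean in all 8 groups. The windows changed were not of very low or very high level. These shares hold for that setting only.

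The members and lists were chosen with earlier results of these data known. Named were the windows called or with the smallest p at each gene, and the low-methylated runs at the start or longest. The other windows named (a near miss, neighbours, and windows passing in both generations) were chosen after their values were seen, as was the setting with every CpG weighted equally. Alternatives covered CpG and read minimums, pseudocount, scale, test, prior, window grid, SNVs (CpGs within 10 bp left out), the replicate number as a block, and each animal left out.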

Additional observations from a re-analysis of the deposited data

Results flagged for a closer look

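In 152 groups of 6 animals (each strain or cross, in each named window, start region and gene interval), the highest or lowest animal was set against the rest with Dixon's ratio at its 95% critical value. It stood apart in 7 groups, and chance gives about 5% of groups. In the *Fgfr4* window from 55256001, B6C3F1 son 2 was at 41.1%, with the nearest animal at 28.4%. In the *Baat* window from 49512501, C3B6F1 son 3 was at 63.2% and the nearest at 72.5%. In the *Cyp27a1* start region B6C3F1 son 3 was at 3.75% and the nearest at 1.15%. In the *Nr1h4* start region C3B6F1 daughter 3 was at 20.7% and the nearest at 17.0%. In the *Klb* start region B6 dam 2 was at 12.4% and the nearest at 16.5%. In the *Cyp27a1* interval B6C3F1 daughter 3 was at 53.6% and the nearest at 55.7%. In the *Cyp7a1* interval C3B6F1 son 2 was at 63.1% and the nearest at 56.3%.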

How the results depend on the processing

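The 5 member windows called between B6 and C3 parents became 3 with at least 5 CpGs per window and 1 with at least 100 reads, settings that leave 289 and 180 of the 486 windows, and 32 and 47 with a minimum difference of 10 points or none. With CpGs weighted equally they became 6. The 2 called between sires and dams became 1 with at least 100 reads, 17 at 10 points, 17 with no minimum difference, and 1 with CpGs weighted equally. Between sons and daughters 0 became 6 at 10 points, 6 with no minimum, 1 with the grid shifted by 250 bp and 1 with CpGs weighted equally. The 2 start regions called between strains became 1 with a pseudocount of 5 and 1 by the quasi-binomial test. The 3 strain intervals became 5 with CpGs weighted equally, and the 0 between sons and daughters became 1 by the quasi-binomial test and 3 with CpGs weighted equally. Between sires and dams the 2 intervals became 3 with CpGs weighted equally, where *Cyp27a1* also passed with sires lower (-1.30 points, limma adjusted p = 0.0309). The *Nr0b2* interval difference moved from 8.59 to 3.80 points under equal weights. The causes of these changes were not tested. Over all gene intervals, equal weights raised the calls from 5966 to 12465 between strains, from 2880 to 6451 between sires and dams, from 124 to 1246 between sons and daughters, from 211 to 2285 between dams and daughters, from 1 to 38 between sires and sons, from 4 to 721 between the crosses, from 38 to 1534 for the change from parents to F1, and from 2 to 17 for strain dependence. The quasi-binomial test gave 821 intervals between dams and daughters and 580 for the change from parents to F1.

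With each animal left out in turn, called member windows ranged from 4 to 7 between strains, 1 to 2 between sires and dams (1 without B6 sire 1, B6 dam 1 or C3 dam 3) and 0 to 1 between sons and daughters (1 without C3B6F1 daughter 1). Start regions ranged from 0 to 3 between strains, and intervals from 3 to 3 between strains and 1 to 2 between sires and dams. The other counts were 0 throughout. With the replicate number as a block, the 5 and 2 called windows, 2 start regions and 3 and 2 intervals were counted as without it, and of 49 single results 1 lost its call (the *Abcb11* window from 69149001, limma adjusted p = 0.0545). Animals of both crosses share each number, so this block cannot stand for the families, and the part of relatedness was not tested. Same-numbered animals correlated at -0.0118 to 0.0608 (84 pairs, 0 above 0.1), and 20 of 24 animals were closest to their own number, a hint from the data and not from the design. That *Abcb11* call was lost in 24 of 32 settings. No called difference changed sign. Of the 49 single results, 6 that had not passed changed sign in some setting, the *Cyp27a1* start region between strains, the *Nr1h4*, *Fgfr4* and *Klb* intervals between strains, and the *Nr0b2* and *Klb* intervals between sires and dams. Depth limits single windows, where 30 reads were required.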
